A study of Mus musculus with 12 samples.

Results

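The NF-kB system was followed in RAW264.7 cells through 10 genes, whose rows were found by symbol in the deposited gene table: the 5 subunit genes Rel, Rela, Relb, Nfkb1 and Nfkb2, the 3 classical IkB genes Nfkbia, Nfkbib and Nfkbie, the nuclear IkB gene Nfkbiz, and the kinase gene Ikbke. They are 10 of the 23764 genes in the table, and all 10 were among the 14715 genes tested. RAW264.7 is an immortalized mouse macrophage line from a Balb/c tumor that can form osteoclast-like cells. All cells received RANKL, the cytokine that starts osteoclast formation, so there is no group without RANKL. The vehicle groups had MEM-alpha medium added, and the treatment groups had culture supernatant of Lactobacillus reuteri, a lactic acid bacterium of the gut. RNA was taken on days 1, 3 and 5, which gives 6 groups of 2 libraries and 12 libraries in all. Whether the 2 libraries of a group are from separate cultures is not stated in the labels; the p-values therefore rest on a spread between libraries that may be no more than technical. One line was used, and in bulk RNA fewer cells of a type and less RNA per cell cannot be told apart.

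NF-kB is a family of dimeric transcription factors. RelA and c-Rel pair mostly with p50, which is cut from the Nfkb1 product, and RelB pairs mostly with p52, which is cut from the Nfkb2 product. In resting cells the classical IkB proteins (IkBα from Nfkbia, IkBβ from Nfkbib, IkBε from Nfkbie) hold the dimers in the cytoplasm until the IKK complex marks them for destruction, and NF-kB then drives Nfkbia and other inhibitor genes in a feedback loop. IkBζ, from Nfkbiz, acts in the nucleus on a subset of inflammatory genes, and IKKε, from Ikbke, is an IKK-related kinase close to TBK1 that is known for interferon induction. RANK, the receptor of RANKL, signals through both the classical and the alternative arm, and mice that lack both p50 and p52 make no osteoclasts.

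NF-kB is known to act on several of its own subunit and inhibitor genes, so the promoter stretches with a match are shown first. The kB consensus (the 10-base motif of the family, searched on both strands) occurred in 4 of the 7 genes that were matched in the RefSeq promoter table (build GRCm38.p6, windows of 250 bases before to 50 after each start site): Rel, Nfkbia, Nfkbie and Nfkb2. It occurred in 7.25% of all 32851 windows and in 8.23% of the 27025 genes of that table. Relb, Nfkb1 and Nfkbiz were not matched. Capitals mark the bases of a match, overlapping matches are merged, and positions are on the strand named. Rel is shown at chr11:23771026-23771086 (minus strand), Nfkbia at chr12:55492648-55492701 (minus strand), Nfkbie at chr17:45555569-45555628 (plus strand), and Nfkb2 at 3 alternative starts, chr19:46304673-46304736, chr19:46305445-46305493 and chr19:46305680-46305739 (plus strand). Ikbke, the gene with the widest treatment differences in the 12-library fit below, is shown for comparison at chr1:131279564-131279683 (minus strand), the 120 bases before its start. The bases at the start were found in a transcript for each stretch shown except those of Nfkbie and Nfkb2 start 2.
Rel: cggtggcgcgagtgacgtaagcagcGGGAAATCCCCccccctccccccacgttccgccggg
Nfkbia: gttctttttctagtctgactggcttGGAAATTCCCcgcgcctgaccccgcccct
Nfkbie: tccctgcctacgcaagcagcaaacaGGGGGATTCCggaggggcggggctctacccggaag
Nfkb2 start 1: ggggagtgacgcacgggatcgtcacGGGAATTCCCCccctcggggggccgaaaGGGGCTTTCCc
Nfkb2 start 2: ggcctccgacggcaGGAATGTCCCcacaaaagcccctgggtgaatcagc
Nfkb2 start 3: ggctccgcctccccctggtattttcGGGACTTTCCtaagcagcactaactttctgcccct
Ikbke: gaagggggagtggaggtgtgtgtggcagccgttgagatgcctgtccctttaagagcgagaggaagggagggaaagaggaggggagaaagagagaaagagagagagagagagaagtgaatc
A looser kB pattern, GGG and CC with any 5 bases between them, was found for 5 of the 7 genes, with Rela added, against 48.7% of all genes of the table. The AP-1 pattern TGACTCA was found for 1, Nfkbie, against 5.16% of genes, and the interferon-response pattern, 2 copies of GAAA with any 2 bases between them, for 0 of 7 against 3.46%. Both strands were searched for each. A match is a stretch of letters and no measured binding, and a window without one says only that the letters are not in those bases.

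Before any group was compared, 4 of the 12 libraries stood apart. Replicate 2 of every group on days 3 and 5 had 38.1 to 48.8% of its reads on nuclear protein-coding genes, 25.7 to 30.6% on mitochondrial genes and 8.15 to 13.97% on the nuclear RNA Malat1. The other 8 libraries had 85.2 to 87.6%, 3.64 to 5.97% and 0.218 to 0.489%. Depth was at most 10724569 reads in the former and at least 13812078 in the latter. These 4 are called low-mRNA libraries. Levels are given as normalized counts, the authors' depth-scaled read counts with the log and its offset undone, with replicate 1 before replicate 2, so that on days 3 and 5 the later value of a group is the low-mRNA library. Since each group of those days holds 1 of each kind, each comparison below used a term for library kind on day 3 and on day 5 in limma, a linear model across all genes, and is also given over the 8 other libraries, where days 3 and 5 have 1 library a group and their spread is taken from day 1. A gene passed, or was called, at an adjusted p under 0.05, with Benjamini-Hochberg adjustment over all genes tested. As another tool, limma-voom was run on the whole reads recovered from the deposited values, with the same terms. Of the macrophage markers listed, 7 of the 9 in the table had at least 10 normalized counts in every library, and 6 of the 10 osteoclast markers did. The libraries of a group also differed in osteoclast markers, and not in 1 direction. The summed normalized count of the 10 was 3745 to 3994 in the day 1 libraries. On day 3 replicates 1 and 2 had 17437 and 4067 in vehicle and 13753 and 6518 in treatment, and on day 5 they had 3502 and 16090 in vehicle and 3177 and 17656.5 in treatment. Replicate 2 was thus the lower on day 3 and the higher on day 5, when all 10 markers were higher in it in vehicle and 8 of 10 in treatment; Ctsk, the bone-degrading protease cathepsin K, had 299 and 6680.1 in vehicle and 281 and 7164 in treatment. Calcr was at 0 in replicate 1 of all 6 groups. Library kind and osteoclast markers cannot be told apart within a day, and the part of the markers in the results below was not tested. Of the 5 lymphocyte markers in the table none reached 10 in any library. Of 4 fibroblast and osteoblast markers 3 stayed under 10 throughout and Runx2 reached 99.7, and the highest epithelial value, that of Epcam, was 15.5.

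**Figure D1:**
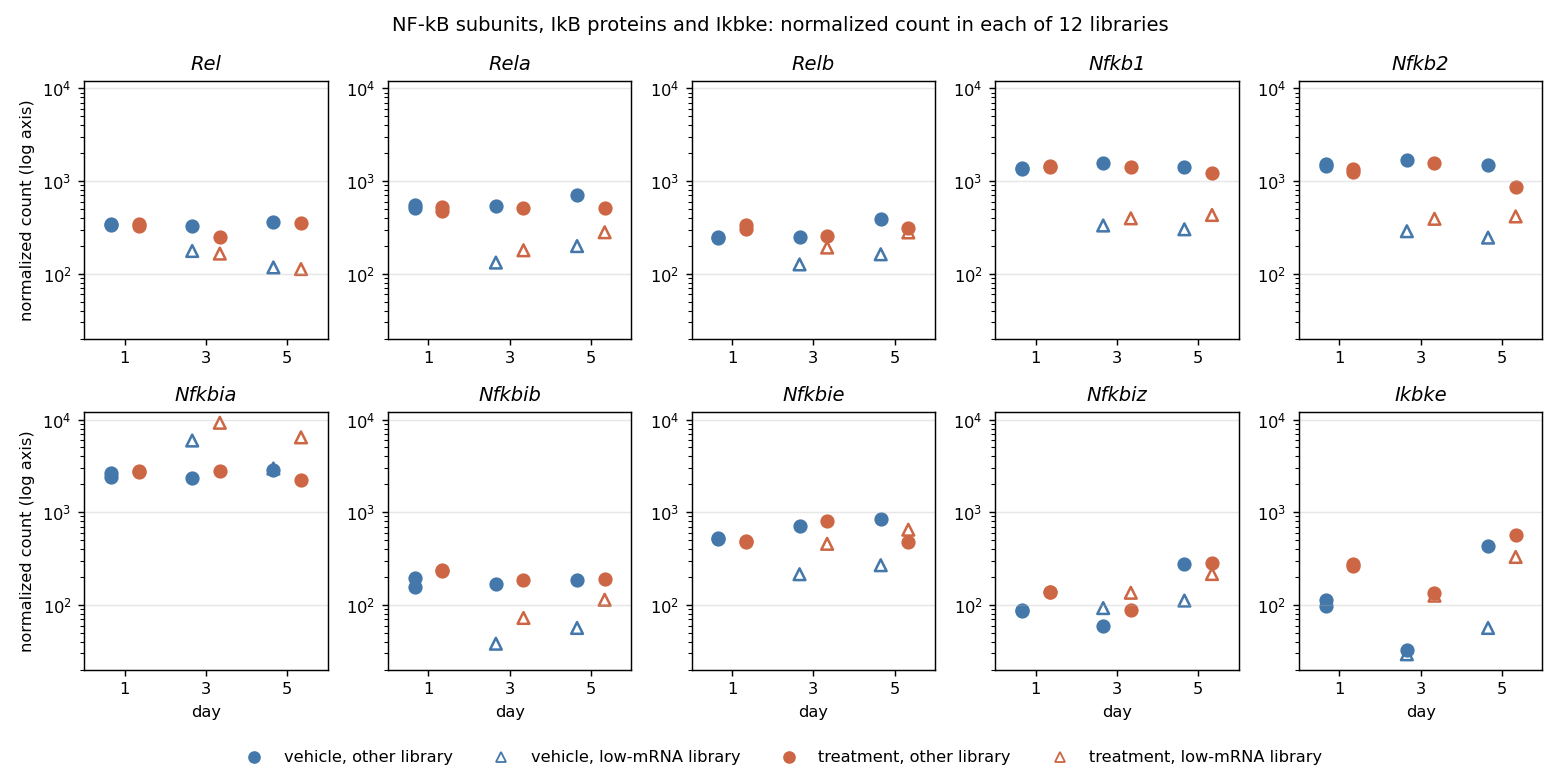
Normalized count (log axis) of each gene on days 1, 3 and 5, with vehicle in blue and treatment in orange; filled circles are libraries of ordinary composition and open triangles are low-mRNA libraries. Ikbke has all treated libraries of days 1 and 3 above the vehicle libraries, and Nfkbia is the one gene whose triangles lie at or above the circles in all 4 groups of days 3 and 5.

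Ikbke, the gene of the kinase IKKε, had the widest difference between supernatant and vehicle of the 10 genes on each day in the 12-library fit; in the day 5 pair of ordinary composition Nfkbie (-0.82) and Nfkb2 (-0.81) were wider than Ikbke (0.40). On day 1 it stood at 114 and 97.8 normalized counts in the vehicle libraries and at 260.4 and 276 in the treated ones. On day 3 the vehicle libraries had 32.8 and 29.4 and the treated libraries 133 and 126. On day 5 the vehicle libraries had 434 and 56.5 and the treated libraries 575 and 329.5. The groups did not overlap on days 1 and 3, and on day 3 this held for both kinds of library. On day 5 the treated range began below the first vehicle library, so the groups overlapped. The log2 difference in limma was 1.33 on day 1 (SE 0.38), 2.02 on day 3 (SE 0.38) and 1.46 on day 5 (SE 0.38). None passed in limma, with adjusted p of 0.522, 0.0850 and 0.144 on the 3 days. Over the 8 libraries of ordinary composition the day 1 difference passed (adjusted p = 0.0127, SE 0.12) and so did that of day 3 (1.99, adjusted p = 0.0479 in limma), while that of day 5 was 0.40 with an adjusted p of 0.205. limma-voom on the recovered reads called Ikbke on all 3 days, with adjusted p of 0.0154, 0.0446 and 0.0224. With 1 library left out of the 12, the day 3 difference passed without replicate 1 of vehicle or of treatment of day 3 (adjusted p = 0.0282 and 0.0285 in limma), where 30.4% and 30.5% of all genes passed. It also passed without any 1 library of day 5 (0.0102 to 0.0111), where 0.292% and 0.279% of all genes passed without vehicle replicates 1 and 2, and 0.211% and 0.265% without treated replicates 1 and 2. The day 5 difference passed, at 2.52, without replicate 1 of vehicle or of treatment of that day (0.0127 and 0.0134), where 1.87% and 1.8% of all genes passed. Between 20 and 627 reads per library stand behind these values.

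Nfkbiz, which encodes the nuclear protein IkBζ, was higher in the treated library of every pair with the same day and number. It had 86.3 and 88.0 normalized counts in vehicle and 137 and 138 in treatment on day 1. Its day 3 values were 59.4 and 92.6 in vehicle and 87.6 and 135 in treatment. By day 5 it had 277 and 112 in vehicle and 283 and 216 in treatment. The groups were separate on day 1 and overlapped on days 3 and 5. The limma differences were 0.65 (SE 0.24, adjusted p = 0.820), 0.55 (adjusted p = 0.343) and 0.49 (adjusted p = 0.495), and the first passed over the 8 libraries (adjusted p = 0.0392 in limma). On day 3 the low-mRNA pair differed by 0.54 on the log2 scale, close to the median of 0.46 over all genes in that pair. On day 5 the pair of ordinary composition differed by 0.03 and the low-mRNA pair by 0.94, against medians of -0.09 and 0.23 over all genes.

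None of the 3 classical IkB genes passed for treatment in the 12-library fit. Nfkbia, the feedback inhibitor, had 2411.5 and 2627 normalized counts in vehicle and 2761 and 2732.5 in treatment on day 1. Its day 3 values were 2359.7 and 5937 in vehicle and 2778 and 9224.5 in treatment. By day 5 it had 2871 and 2961 in vehicle and 2207 and 6422 in treatment. The treated libraries were above both vehicle libraries on day 1 only, and within days 3 and 5 the low-mRNA library was the higher one of each group. Nfkbib, the gene of IkBβ, had 198 and 158 in vehicle and 241 and 234 in treatment on day 1. Vehicle libraries of day 3 had 169.6 and 38.2 and treated ones 185 and 72.4, and on day 5 it had 187 and 56.5 in vehicle and 192 and 114 in treatment. It was higher in the treated library of all 6 pairs, by 0.04 to 1.00 on the log2 scale. Nfkbie, the gene of IkBε, had 509.7 and 525 in vehicle and 489 and 479 in treatment on day 1. On day 3 it had 717 and 215 in vehicle and 799.8 and 457 in treatment, and on day 5 it had 839 and 268 in vehicle and 473.5 and 648 in treatment. The treated values of Nfkbie lay just under the vehicle values on day 1 and overlapped with them later, and on day 5 its 2 pairs went opposite ways, by -0.82 and 1.27. In limma the treatment differences of days 1, 3 and 5 were 0.13, 0.44 and 0.37 for Nfkbia, 0.42, 0.51 and 0.52 for Nfkbib, and -0.10, 0.62 and 0.22 for Nfkbie, with adjusted p from 0.384 to 1. Nfkbie passed on day 5 over the 8 libraries of ordinary composition, with a difference of -0.82 (SE 0.08, adjusted p = 0.0147 in limma), where each arm is 1 library.

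None of the 5 subunit genes passed for treatment in the 12-library fit. Rela, the main activating subunit of the classical arm, had 552 and 515 normalized counts in vehicle and 525 and 482 in treatment on day 1. Its day 3 values were 539 and 132 in vehicle and 512 and 179.5 in treatment, and on day 5 it had 705 and 199 in vehicle and 508 and 281 in treatment. Its groups overlapped on each day. Rel, the gene of c-Rel, had 340.1 and 341 in vehicle and 324 and 343 in treatment on day 1. Later values of Rel were 324 and 176 in vehicle and 252 and 165 in treatment on day 3, and on day 5 it had 359 and 117 in vehicle and 352 and 113 in treatment. Rel was lower in the treated library of both pairs of days 3 and 5, by 0.03 to 0.36 on the log2 scale. Relb, of the alternative arm, had 241 and 251 in vehicle and 337 and 305 in treatment on day 1. Day 3 gave 249 and 126 in vehicle and 257.5 and 192 in treatment, and on day 5 it had 389 and 162.5 in vehicle and 313 and 279.7 in treatment. Its treated libraries were above vehicle on day 1 and overlapped later.

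Nfkb1, the gene of p105 and p50, had 1381 and 1343 normalized counts in vehicle and 1424 and 1468 in treatment on day 1. Day 3 gave 1586 and 332 in vehicle and 1425 and 397 in treatment, and on day 5 it had 1431 and 302 in vehicle and 1218 and 431 in treatment. The day 1 groups were separate by a small step, and the later ones were spread by library kind far more than by treatment. Nfkb2, the gene of p100 and p52, had 1472 and 1511 in vehicle and 1354 and 1245 in treatment on day 1. On day 3 it had 1685 and 288 in vehicle and 1554 and 392 in treatment, and on day 5 it had 1507 and 246 in vehicle and 861 and 416 in treatment. Its treated libraries were both below vehicle on day 1, and on day 5 the pairs went opposite ways, by -0.81 and 0.76. In limma the treatment differences of the 5 subunit genes ran from -0.23 (Rel, day 3) to 0.38 (Relb, day 1), with adjusted p from 0.484 to 1. Nfkb2 passed on day 5 over the 8 libraries with -0.81 (SE 0.08, adjusted p = 0.0171 in limma), again with 1 library an arm.

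Counted together, 0 of the 10 genes passed in limma for treatment on day 1, where 0.0408% of all genes passed, 0 on day 3 (0.068% of all genes) and 0 on day 5 (0.408%). At an unadjusted p under 0.05 there were 2, 2 and 1: Nfkbiz and Ikbke on days 1 and 3, and Ikbke on day 5, where 4.68%, 14.4% and 11% of all genes had such a p, so the counts of days 3 and 5 are near that background. Over the 8 libraries of ordinary composition limma called 2 on day 1 (5.74% of all genes), 1 on day 3 (0.116%) and 2 on day 5 (5.81%). limma-voom called 1 on each day, Ikbke, against 2.45%, 1.06% and 5.93% of all genes.

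Without a test, the groups of day 1 were separate and higher with supernatant for 6 of the 10 genes (Relb, Nfkb1, Nfkbia, Nfkbib, Nfkbiz, Ikbke), against 21.4% of all genes, and separate and lower for 2 (Nfkb2, Nfkbie), against 33.4%. On day 3 the treated libraries were both above the vehicle ones for 1 gene, Ikbke, against 4.46% of all genes, and both below for 0 (1.45%). On day 5 they were separate for 0 genes, against 3.36% higher and 3.88% lower. Pairs of the same number on days 3 and 5 have the same library kind. On day 3 Relb, Nfkbia, Nfkbib, Nfkbie, Nfkbiz and Ikbke were higher in both pairs, which 37.5% of all genes were (31% after scaling to nuclear protein-coding reads, with the same 6 genes), and Rel was lower in both (10.8%). On day 5 Nfkbib, Nfkbiz and Ikbke were higher in both (26.8%, and 20.4% after that scaling, with the same 3 genes) and Rel was lower in both (21.8%), while the other 6 were lower in the pair of ordinary composition and higher in the low-mRNA pair, as 41.1% of all genes were. Nfkbib, Nfkbiz and Ikbke were higher in all 6 pairs, against 7.27% of all genes, and 0 of the 10 were lower in all 6 (2.04%). The low-mRNA pair of day 3 had a median difference of 0.46 over all genes. Scaling to nuclear protein-coding reads brought that median to 0.16, and the same 3 genes were still higher in all 6 pairs (5.66% of all genes).

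**Figure D2:**
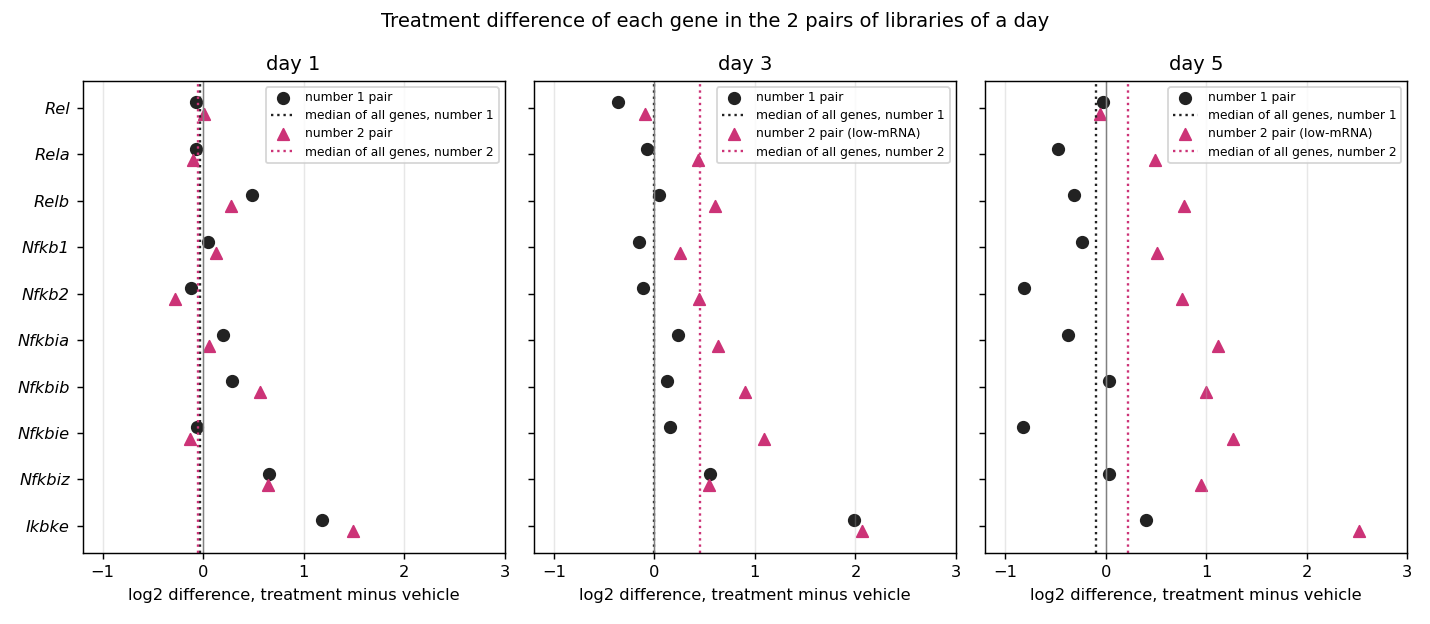
Log2 difference of normalized counts, treatment minus vehicle, for each gene in the number 1 pair (circles) and the number 2 pair (triangles) of days 1, 3 and 5; dotted lines are the medians of all genes tested in the same pair. The day 1 points of a gene lie close together, Ikbke lies at 1.99 and 2.06 on day 3, and on day 5 most genes have the circle left and the triangle right of 0.

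The treatment effect was also compared between days. The F test of limma for a treatment effect that differs between days called 0 of the 10 genes at an adjusted p under 0.05, and 0 at an unadjusted p under 0.05, where 0% of all genes passed after adjustment and 4.76% (701 genes) before it. Over the 8 libraries (0.102% of all genes) and in limma-voom (0.197%) it also called 0. For Ikbke the effect of day 3 minus that of day 1 was 0.69 (SE 0.54, adjusted p = 0.639 in limma). For Nfkbie the same difference was 0.72 (SE 0.54, adjusted p = 0.633 in limma).

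In the vehicle groups, which received RANKL alone, Nfkbiz rose between days 1 and 5, from 86.3 and 88.0 to 277 and 112 normalized counts, a log2 difference of 1.43 (SE 0.27, adjusted p = 0.0218 in limma). It was the only one of the 10 genes that passed between these days, against 2.93% of all genes. At an unadjusted p under 0.05 there were 2, with Ikbke added, against 18.2% of all genes. The higher Nfkbiz value is in vehicle day 5 replicate 1, the library with the low osteoclast markers (3502 against 16090). The call was lost without vehicle day 5 replicate 1 (0.74, adjusted p = 0.249 in limma), without either vehicle library of day 1 (adjusted p = 0.183 and 0.181) and without either treated library of day 1 (0.0577 and 0.0581). Ikbke stood at 114 and 97.8 on day 1, at 32.8 and 29.4 on day 3, and at 434 and 56.5 on day 5, so the 2 vehicle libraries of day 5 lay on opposite sides of those of day 1, again with the higher value in the library of low osteoclast markers. Its log2 differences from day 1 were -1.68 on day 3 (adjusted p = 0.0685 in limma) and 1.50 on day 5 (adjusted p = 0.0908), and the latter was -0.09 without vehicle day 5 replicate 1. Between days 1 and 3, 0 of the 10 genes passed in limma, against 2.87% of all genes, and Ikbke alone had an unadjusted p under 0.05, as 14.5% of all genes had, which is near 1 of 10. With any 1 library of day 5 left out Ikbke passed between days 1 and 3, where 3.66%, 3.74%, 3.57% and 3.7% of all genes passed (vehicle replicates 1 and 2, then treated replicates 1 and 2). Between days 1 and 5 it passed, at 2.03, without vehicle replicate 2 (2.74% of all genes) or treated replicate 1 or 2 of day 5 (2.61% and 2.68%).

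The vehicle comparison of day 3 with day 1 over the 8 libraries called 3 genes (19.7% of all genes): Nfkbie at 0.47, Nfkbiz at -0.55 and Ikbke at -1.66. That of day 5 with day 1 called 5 (29.4% of all genes), all higher on day 5: Relb at 0.66, Rela at 0.40, Nfkbie at 0.70, Nfkbiz at 1.66 and Ikbke at 2.03. In each the later day is 1 library, and that of day 5 is the one with low osteoclast markers. limma-voom called Ikbke between days 1 and 3 (12.7% of all genes), and Nfkbiz and Ikbke between days 1 and 5 (19.1%). Nfkb1, Nfkb2, Rel, Nfkbia and Nfkbib passed in none of these fits, with 12-library differences from -0.38 to 0.12.

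The step between low-mRNA and other libraries was uneven over the 10 genes. In the day 3 vehicle group the low-mRNA library was below the other by 1.71 on the log2 scale at the median of all genes, in the day 5 vehicle group by 1.28, and in the treated groups by 1.20 and 0.92. Nfkb1 and Nfkb2 lay under that median in all 4 groups, as 35.2% of all genes did. On days 3 and 5 Nfkb1 was at -2.25 and -2.24 in vehicle and -1.84 and -1.49 in treatment, and Nfkb2 at -2.54 and -2.61 in vehicle and -1.98 and -1.05 in treatment. Nfkbia went the other way, at 1.33 and 0.04 in vehicle and 1.73 and 1.54 in treatment. It was the only one of the 10 genes that was higher in the low-mRNA library of all 4 groups, as 12.3% of all genes were. On day 3 Nfkbiz was also higher there in both arms, by 0.63 and 0.62, as 15.5% of all genes were. Malat1 and mitochondrial reads are higher in those same libraries on both days, and the osteoclast markers are lower in them in sum on day 3 and higher on day 5; their part in these values was not tested.

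**Figure D3:**
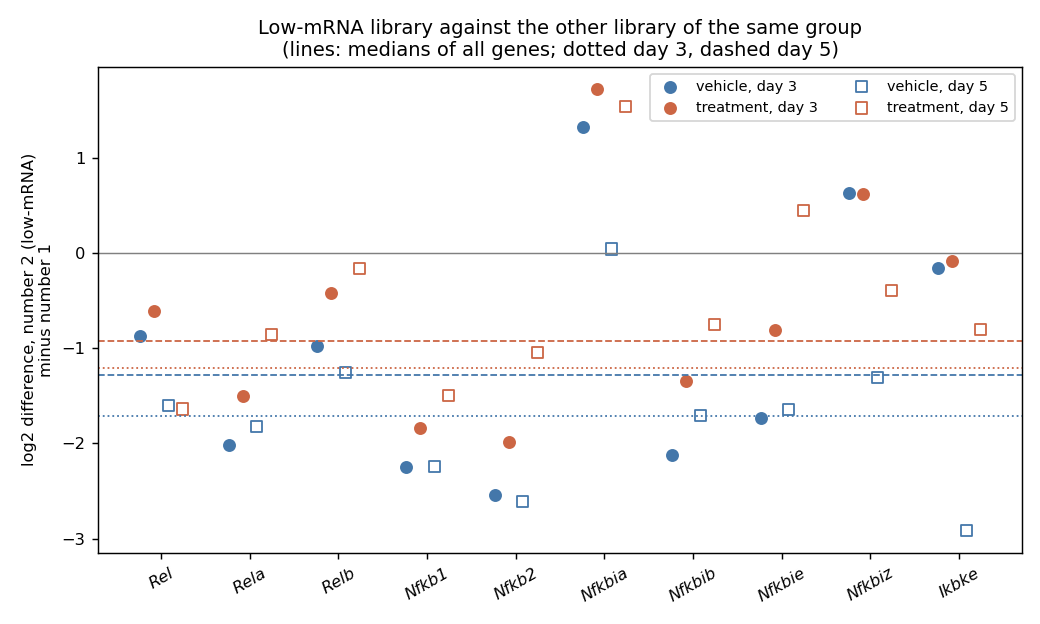
Log2 difference of normalized counts, low-mRNA library minus the other library of the same group, for each gene on day 3 (filled circles) and day 5 (open squares), with vehicle in blue and treatment in orange; horizontal lines are the medians of all genes tested. Nfkbia is at or above 0 in all 4 groups, and Nfkb1 and Nfkb2 are below the matching line in each.

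Per kilobase of exon the genes spanned a wide range of levels. In vehicle on day 1 Nfkbia had 1565 normalized counts per kilobase and Nfkb2 had 325. Rela (174) and Nfkbie (169.9) followed, and these 2 overlapped over their libraries. Nfkb1 had 113, Nfkbib 82.0, Relb 63.3, Rel 45.6, Nfkbiz 17.4 and Ikbke 11.8, and no other neighbours in this order overlapped. Ikbke thus had the lowest level of the 10 per length of merged exons. That length merges all annotated exons of a gene and was 9018 bases for Ikbke and 12061 for Nfkb1. It can exceed the length of the transcripts present, so the order may differ per transcript length, which was not tested.

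The genes around these 10 in the pathway were counted by lists. The kinases of the IKK complex and above it (8 genes, such as Chuk, Ikbkb and Tbk1), the other IkB-like and IkB-regulating genes (8, such as Bcl3 and Nfkbid), the adaptors and ubiquitin ligases (19, such as Myd88 and Traf6) and the deubiquitinases and binding inhibitors (8, such as Tnfaip3 and Cyld) had 0 genes passing in limma for treatment on any day. At an unadjusted p under 0.05 there were 1, 1 and 0 kinases on days 1, 3 and 5, 0 IkB-like genes on each day, 0, 3 and 0 adaptors, and 1 deubiquitinase or inhibitor on each day, where 4.68%, 14.4% and 11% of all genes had such a p; the 3 of 19 adaptors and 1 of 8 kinases of day 3 are near that share. limma-voom called 1 kinase gene lower and 1 inhibitor gene higher on day 1, both named after their values were seen, and 0 others of these 4 lists for treatment. The former was Map3k14, which encodes NIK, the kinase of the alternative arm, with 204 and 201 normalized counts in vehicle and 108 and 111 in treatment (-0.85, adjusted p = 0.0057 in limma-voom). The latter was Tnfaip3, which encodes the inhibitor A20, with 317 and 293 in vehicle and 452 and 431 in treatment (0.57, adjusted p = 0.0292 in limma-voom). Their vehicle and treated libraries did not overlap on day 1. In the 8-library fit, where 5.74% of all genes passed on day 1 and 5.81% on day 5, 2 kinase genes passed lower, 2 adaptor genes higher and 1 inhibitor gene higher on day 1, and 1 IkB-like gene (Bcl3, a nuclear partner of p50 and p52, with 104 normalized counts in the vehicle and 51.4 in the treated library) and 3 adaptor genes (Traf1, Traf3 and Birc3) passed lower on day 5. Of 13 upstream receptors tested, 0 passed for treatment in limma. At an unadjusted p under 0.05 in limma there were 1, 6 and 4 on days 1, 3 and 5, against 4.68%, 14.4% and 11% of all genes. Of the receptors, limma-voom called 0 on day 1, against 2.45% of all genes. On day 3 (1.06% of all genes) it called Cd14 and Cd40 higher and Tlr9 lower. On day 5 (5.93%) it called Cd14 higher and Tnfrsf11a, the gene of RANK, lower (-0.66, adjusted p = 0.0024 in limma-voom). In the 8-library fit 2 receptor genes passed higher and 0 lower on day 1. The list median of days 3 and 5 there was 0.09 and -0.07, against -0.01 and -0.09 over all genes. In vehicle from day 1 to day 3, 1 receptor gene fell in limma and 0 rose, where 2% of all genes fell. That gene was Cd14, the co-receptor for lipopolysaccharide, which fell by 2.07 on the log2 scale (SE 0.25, adjusted p = 0.0021 in limma). In limma-voom 2 receptor genes rose and 1 fell in that comparison, where 757 of all genes rose and 1109 fell.

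Targets of NF-kB, the cytokines, enzymes and survival genes that its dimers are known to drive, were counted in the same way. Of 30 listed, 25 were tested, and their median log2 difference was 0.67 on day 1, 0.96 on day 3 and 1.13 on day 5, against -0.04, 0.23 and 0.07 over all genes. In limma 2 rose on day 1, 1 on day 3 and 4 on day 5, and 0 fell on any day. Of all 14715 genes, 6, 10 and 41 rose and 0, 0 and 19 fell on those days. In the 8-library fit 15 targets rose and 0 fell on day 1, where 459 of all genes rose and 385 fell. There the list median of days 3 and 5, with 1 library an arm, was 0.57 and 0.60, against -0.01 and -0.09 over all genes. Not every target was higher there on day 5. Birc3 had 2209 normalized counts in the vehicle and 1252 in the treated library of ordinary composition, and Traf1 had 537 and 322. In limma-voom 13, 5 and 15 targets rose and 0 fell, where 297, 120 and 583 of all genes rose and 64, 36 and 289 fell. The list was chosen with earlier results of these data known, and Tnfaip3, Traf1, Birc3 and Cd40 stand in another list too. With genes at 0 reads in a group set to a floor of 3 reads per library or left out, the medians of days 3 and 5 were again 0.96 and 1.13.

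Saa3, an acute-phase gene of macrophages, was the target that rose on each of the 3 days. It had 6.82 and 2.69 normalized counts in vehicle and 74.8 and 73.6 in treatment on day 1, and 5.52 and 1.41 in vehicle and 151 and 87.7 in treatment on day 5. On day 3 both vehicle libraries had 0 reads, and the treated libraries had 14.9 and 47.2. The vehicle and treated libraries of Saa3 did not overlap on any day. Against a floor of 3 reads in each vehicle library it was at least 9.20-fold higher on day 3, and its adjusted p in limma was 0.0442, 0.0081 and 0.0073 on the 3 days. Il1rn, which encodes the interleukin-1 receptor antagonist, rose on day 1, from 906 and 761 to 3582 and 3322 (log2 difference 2.05, SE 0.22, adjusted p = 0.0289 in limma). On day 5 Ptgs2, the inducible prostaglandin synthase, rose by 4.13 (SE 0.48), Ier3, an immediate early gene, by 2.55 (SE 0.30), and Marcksl1, named after its value was seen, by 1.81 (SE 0.22), with adjusted p of 0.0080, 0.0092 and 0.0092 in limma. These target calls depend on the setting. Without the library-kind term, with a replicate term in its place, or without the count filter, 0 of all genes passed for treatment on any day.

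In vehicle alone 8 of the 25 targets fell from day 1 to day 3 in limma and 0 rose, where 2% of all genes fell, with a list median of -0.78 (-0.73 with genes at 0 reads in a group set to that floor or left out), against -0.08 over all genes. In the same comparison 5 of 9 osteoclast markers tested rose (list median 1.89), where 128 of 14715 genes rose. Of 8 macrophage markers tested 2 fell, Cd14 and Fcgr1, and 0 rose (list median -0.22). The part of these markers in the fall of the targets was not tested. From day 1 to day 5, 2 targets fell in limma, Ptgs2 and Ier3, and 0 rose, where 193 of 14715 genes fell and 238 rose. In limma-voom 6 targets rose and 2 fell, where 1568 of all genes rose and 1244 fell. The list median was -0.01 in limma, 0.09 in limma-voom and 0.28 over the 8 libraries. The medians of all genes in these fits were -0.09, -0.0006 and -0.003.

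**Figure D4:**
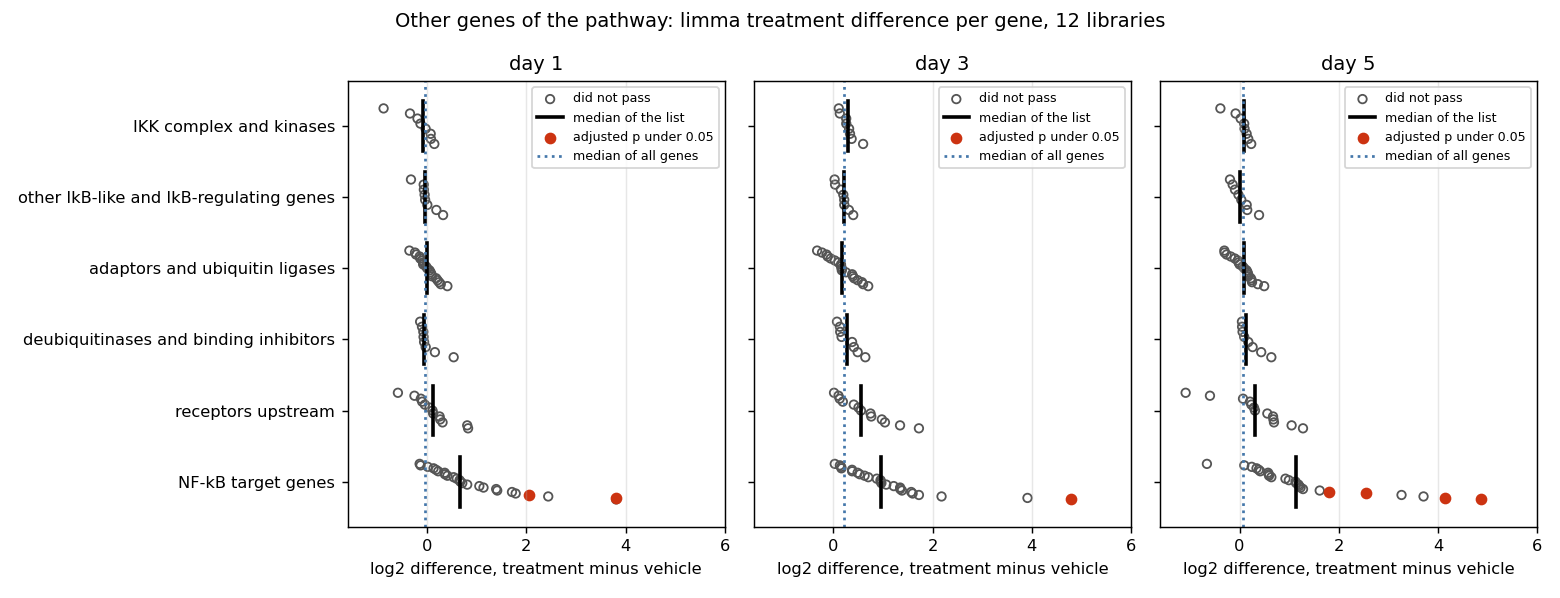
Log2 treatment difference in limma over 12 libraries for each tested gene of 6 pathway lists on days 1, 3 and 5; filled red points passed an adjusted p of 0.05, black bars are list medians and the dotted line is the median of all genes. The red points all belong to the NF-kB target list; the day 3 point of Saa3 depends on the pseudocount because its vehicle libraries have 0 reads.

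Profiles like those of Ikbke and Nfkbiz were looked for among the 11125 genes whose normalized count averaged at least 50 over the 12 libraries; both were chosen for this after their values were seen. Likeness was the root mean square difference of the treatment minus vehicle log2 differences over the 6 pairs. Nearest to Ikbke were Spred3 (0.37) and Trib3 (0.38), and nearest to Nfkbiz were Evl (0.10) and Cp (0.17). The treatment differences of Spred3 were 0.70 and 1.12 on day 1, 1.62 and 1.67 on day 3, and 0.67 and 2.22 on day 5. Spred3 was picked by these same values, so its likeness to Ikbke on day 5 follows from the choice. Over the 4 pairs without a low-mRNA library the nearest were C3 and Spred3 for Ikbke, and Evl and Prdx1 for Nfkbiz.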

How the data were processed

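RNA of 12 libraries was made with a TruSeq kit from total RNA, per the labels' protocols, and the submitters' processing notes name TopHat2, SAMtools, DESeq2 and the mm9 build. The deposited values are on a log2 scale, the log2 of a normalized count plus 8 as read from the values, per the file headers 1 column a library. Removing that offset gave normalized counts, and reads recovered from their steps were whole to within 0.02 for each value above 0. Values were matched to the Ensembl identifier and symbol columns; a further identifier column runs out of step from row 50 and was not used. Of 24757 rows, 993 repeated ones were dropped. Gene classes and exon lengths came from GENCODE M21 (GRCm38), which is not the authors' build, so no gene coordinates were taken from it.

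The members and lists were chosen with earlier results of these data known. Genes that averaged 10 or more normalized counts in some group (of 6) were tested with limma 3.58.1 (R 4.3.3), trended, on log2(normalized count + 1), with a mean per group and a term for library kind (low-mRNA: under 60% of reads on nuclear protein-coding genes) on day 3 and on day 5, which leaves 4 residual degrees of freedom, and Benjamini-Hochberg adjustment over all 14715 genes. Folds of low genes come out too small on this scale. The fit was tested on simulated data. The 2 libraries of each group were compared by a chi-square per degree of freedom. It was 3.94 and 4.93 in the day 1 groups and 495 to 708 in the others, which each hold a low-mRNA library. The 2 libraries of a group thus differed by more than repeated sequencing of 1 library would give. Libraries of different groups were not compared in this way, and whether 2 libraries came from 1 culture stays unknown. All 10 members are named; from each list up to 3 genes called with the smallest p on days 1 and 5; and for a member called for treatment the 2 genes of nearest profile. Since none was called, the last was applied to Ikbke and Nfkbiz. Alternatives were 10 other settings and each of the 12 libraries left out.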

Additional observations from a re-analysis of the deposited data

Results flagged for a closer look

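The treatment difference of Nfkbie had opposite signs on days 1 and 3. Both treated libraries of day 1 were below the vehicle libraries, and on day 3 the treated library was above the vehicle one in both pairs of the same number. The treatment difference of day 3 minus that of day 1 was 0.72 on the log2 scale (SE 0.54, unadjusted p = 0.214, adjusted p = 0.633 in limma), which did not pass. The median of that contrast over all genes was 0.26. The day 1 differences were -0.06 and -0.13, against medians of -0.03 and -0.05 over all genes in the same pairs. Those of day 3 were 0.16 and 1.09, against -0.01 and 0.46, and the day 3 groups overlapped.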

How the results depend on the processing

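Replicates 2 of days 3 and 5 limit most values: each group of those days has 1 library of each kind, and the 8-library fit takes its spread from day 1. Depth limits Ikbke and Nfkbib most, with as few as 20 and 26 reads. The genes called among the 10 changed with the setting. For treatment over the 8 libraries they were 2, 1 and 2 on days 1, 3 and 5, and in limma-voom 1, 1 and 1, against 0 in the fit reported. Between vehicle days 1 and 3, 1 gene was called with quantile normalization, with nuclear protein-coding scaling and in limma-voom. Of all 14715 genes those settings called 1123, 918 and 1866. The fit reported called 0, and 423 of all genes. Between vehicle days 1 and 5, 2 were called on the deposited log2 values, with quantile normalization, with that scaling and in limma-voom. Of all genes those settings called 804, 1722, 1378 and 2812. The fit reported called 1, and 431 of all genes. Without the library-kind term and with the replicate block 0 were called, but 0 of all genes passed there. Without the count filter 0 were called, where 70 of 23764 genes passed. The vehicle calls over the 8 libraries are given above with their shares. With 1 library left out, the count ranged from 0 to 0 on day 1, 0 to 1 on day 3, 0 to 2 on day 5, 0 to 1 between days 1 and 3, 0 to 2 between days 1 and 5, and 0 to 0 for a difference between days; a group left with 1 library is assumed to vary like the others. Ikbke and Nfkbia passed for treatment on day 5 without replicate 1 of either arm of day 5 (2.52 and 1.12). Ikbke also passed between vehicle days 1 and 3 without any 1 library of day 5, and between days 1 and 5, at 2.03, without vehicle replicate 2 or either treated library of day 5.

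The replicate block did not take the place of a pairing. Deviations of the same number correlated at 0.78 to 0.90 among the groups of days 3 and 5. Where a day 1 group was involved they correlated at 0.048 to 0.091. The fit reported therefore did not take the numbers as pairs. Pairs of the same number are used above for description only, and on day 1 they join libraries with little shared deviation. With the replicate block in place of the library-kind term, and equally with no such term, the vehicle difference of day 3 from day 1 changed sign for Nfkb1 (-0.91), Nfkb2 (-1.10), Nfkbia (0.57) and Nfkbie (-0.40), and that of day 5 for Rel (-0.73), Rela (-0.51), Nfkbia (0.21) and Nfkbie (-0.12). Over the 8 libraries the sign changed for treatment on day 3 in Rela (-0.075), Nfkb1 (-0.15) and Nfkb2 (-0.12), on day 5 in Rela (-0.47), Relb (-0.31), Nfkb1 (-0.23), Nfkbia (-0.38) and Nfkbie (-0.82), between vehicle days 1 and 3 in Rela (0.016) and Relb (0.019), and between days 1 and 5 in Nfkb1 (0.071), Nfkb2 (0.016), Nfkbia (0.19) and Nfkbib (0.080). In limma-voom it changed for Rel on day 1 (0.0040), Rela (-0.041), Nfkb1 (-0.15) and Nfkb2 (-0.061) on day 3 and Rela on day 5 (-0.15). With quantile normalization it changed for Rela (-0.055), Nfkb1 (-0.15) and Nfkb2 (-0.050) on day 3 and Rela on day 5 (-0.076), and with nuclear protein-coding scaling for Nfkb1 on day 3 (-0.10) and Rela on day 5 (-0.11). None of these differences passed in the fit reported, and the cause was not tested.

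With 1 library left out, treatment differences that changed sign ranged as follows: Rel on day 1 from -0.072 to 0.010; Rela, Nfkb1 and Nfkb2 on day 3 from -0.075 to 0.44, -0.15 to 0.26 and -0.12 to 0.44; and on day 5 Rela from -0.47 to 0.49, Relb from -0.31 to 0.78, Nfkb1 from -0.23 to 0.51, Nfkb2 from -0.81 to 0.76, Nfkbia from -0.38 to 1.12 and Nfkbie from -0.82 to 1.27. Between vehicle days 1 and 3 the ranges were -0.50 to 0.016 for Rela, -0.53 to 0.019 for Relb, -0.19 to 0.22 for Nfkb1, -0.38 to 0.18 for Nfkb2 and -0.46 to 0.47 for Nfkbie. Between days 1 and 5 they were -0.56 to 0.40 for Rela, -0.43 to 0.66 for Relb, -0.67 to 0.071 for Nfkb1, -1.55 to 0.016 for Nfkb2, -1.31 to 0.19 for Nfkbia, -0.88 to 0.080 for Nfkbib, -1.40 to 0.70 for Nfkbie and -0.090 to 2.03 for Ikbke. The treatment differences of Ikbke, Nfkbiz and Nfkbib kept their direction on each day in every setting run. Of the gene differences under other settings 435 kept direction and side of the threshold, 21 passed that had not, 3 no longer passed and 41 changed sign.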
